A study of Mus musculus with 58 samples.

Results

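The exonic and the intronic response of wild-type CD4+ T cells to 24 h of a weak stimulus was measured gene by gene, in 4 stimulated libraries (weak 24 h) against 3 libraries of naive cells. A gene was included when its introns spanned more than 0 and at most 3000000 bases and when it averaged at least 10 counts over these 7 libraries in both the exon and the intron count table, and 10417 of 24028 genes met this. The genes were thus chosen by intron width and by mean counts over both states, and the mean itself holds the level of the higher state, so that 1035 members averaged under 10 counts in 1 state in at least 1 of the tables. Of the genes left out, 3500 had no intron, 21 had introns above the width limit, 8745 had too few exonic counts and 1345 had enough exonic but too few intronic counts. At the edge, Thnsl1, Edaradd and Celsr2 were kept with a mean of 10.0 intronic counts, and Zfp385a, Zfp882 and Cfl2 were left out with 9.86.

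The series compared T helper cells with deleted, added or normal copies of the microRNA cluster miR-17∼92, and holds 58 libraries in 15 groups. Naive CD4+ T cells were purified with a kit from lymph nodes and spleens pooled from 10 mice of both sexes. The stimulated group here was labelled wt, 24h and weak, which stands for plates coated with anti-CD3 at 0.5 µg/ml and anti-CD28 at 0.2 µg/ml with IL-2 (50 U/ml) in the medium. The other group was labelled wt and naive, with no stimulus or culture time, so that stimulation and culture cannot be told apart. Wild-type mice carried no Cre transgene, and their age is not given in the labels. The same contrast was also measured in T1792 delta/delta cells (KO, CD4cre with lox sites around the cluster) and in T1792 tg/tg cells (TG, CD4cre with a lox-STOP transgene of the cluster under a CAG promoter in Rosa26), where Cre acts in T lineage cells. No label says whether the libraries of a group came from separate pools of mice, so p-values measure the spread between these libraries, which may be technical.

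Introns are transcribed with the rest of a gene and are cut out of the pre-mRNA soon after, so reads in introns mostly come from recent or unfinished transcripts, and reads in exons mostly from mature mRNA. A change in transcription is therefore usually seen in both regions, and a change in the lifetime of the mRNA mainly in exons. Retained introns, overlapping transcripts and unspliced RNA kept in the nucleus also give intronic reads, and T cells leaving quiescence are known to raise transcription, splicing and translation widely. The libraries were made from poly(A) RNA, which lowers the share of unspliced molecules.

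The 7 libraries were of nearly equal exonic depth, with 19.4 to 19.5 M exonic counts in stimulated cells and 20.4 to 20.8 M in naive cells. Intronic depth differed, with 3.53 to 4.39 M intronic counts in stimulated cells and 6.75 to 9.11 M in naive cells. The intronic share of all counts was 16.5% ± 1.3 (SD, n = 4) in stimulated and 28.1% ± 3.2 (n = 3) in naive cells, a difference of -11.6 percentage points (two-sided exact permutation test, p = 0.0286, the smallest that 35 relabellings allow). Exonic and intronic counts were therefore each scaled by their own library sizes and TMM factors, which sets the typical gene's change near 0 in both regions. The lower intronic share of the whole library is thus part only of the values given below with exonic scaling. With the exonic scaling used for both regions, the median difference between exonic and intronic change was 1.2 on the log2 scale in place of -0.03, and 73% of members had a called difference, 70.6% above and 2.39% below 0. The intronic changes themselves had a median of -1.26 over the members under that scaling, with 795 called higher and 7507 lower. Every statement on direction below is therefore relative to the typical gene. Levels are given as counts-per-million (CPM) of the exonic or of the intronic counts and are not corrected for length.

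Markers of other cells moved with the contrast. Over 14 B cell genes the summed exonic level was 87.5 to 166 CPM in stimulated and 815 to 1517 CPM in naive libraries, over 20 myeloid and dendritic genes 65.8 to 83.5 and 454 to 738 CPM, and over 7 erythroid genes 2.05 to 9.73 and 183 to 591 CPM. C1qb, C1qc, Marchf1 and Mrc1 were at 0 in every stimulated library, and none of these markers was at 0 in all naive libraries. The 12 CD4 T cell genes summed to 3910 to 4370 CPM in stimulated and 6574 to 7424 CPM in naive libraries, so the labelled cell type was present in all of them. In bulk RNA, fewer cells of a type and less RNA per cell cannot be told apart, and the part of other cells in the results was not tested.

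Activation changed the exons of most genes and the introns of many. A gene was called changed at a Benjamini-Hochberg adjusted p under 0.05 in edgeR's quasi-likelihood test, over all genes fitted. Of 12252 genes fitted on exonic counts 82.5% were called (40.4% higher and 42% lower in stimulated cells), and of 11282 fitted on intronic counts 58.6% (28.5% higher and 30.1% lower). Among the 10417 members, exonic counts rose in 4337 and fell in 4354, and intronic counts rose in 3000 and fell in 3109. The members' exonic log2 changes had a median of -0.01, with the middle of the distribution between -0.97 and 0.91 (25th and 75th percentiles), and their intronic log2 changes a median of -0.03, between -0.77 and 0.71. The median standard error was 0.11 for an exonic and 0.22 for an intronic log2 change.

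Exonic and intronic change differed from each other in 48.6% of members. This difference, the exonic minus the intronic log2 change, was tested in 1 fit of both regions with a term for each library. The exonic change was above the intronic in 2488 members (23.9%) and below it in 2579 (24.8%), with 2598 called differences of at least 1 log2 unit. The shares of 23.9% and 24.8% are those to set beside the counts of every gene list below. The middle of its distribution lay between -0.65 and 0.56. The exon to intron ratios of the 4 stimulated and 3 naive libraries did not overlap in 5211 members, which is 50% of them.

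Both regions moved together in the largest classes. Exonic and intronic counts both rose in 2387 members, of which 1448 had no called difference between the regions, 606 rose more in exons and 333 rose more in introns. Both fell in 2555 members, of which 1454 had no called difference, 759 fell more in exons and 342 fell more in introns. Exons rose in 1665 and fell in 1542 members with no call in introns, and the difference itself was called in 1006 and 898 of these. Introns rose in 356 and fell in 269 members with no call in exons. Opposite calls were made in 2.74% and 2.47% of members, with 285 members that rose in exons and fell in introns and 257 members that fell in exons and rose in introns. The plot of exonic against intronic change shows these classes as distance from the diagonal.

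**Figure D1:**
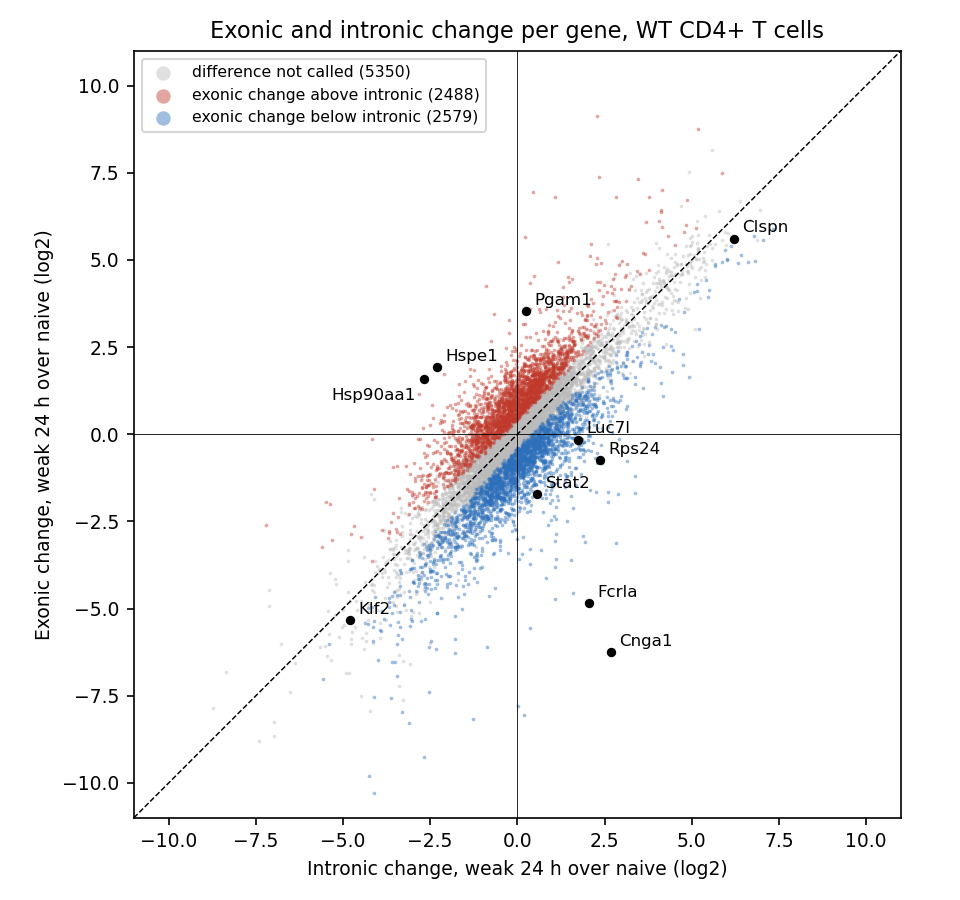
Exonic (vertical) against intronic (horizontal) log2 change of weak 24 h over naive WT cells, with 1 point for each of the 10417 members, coloured by the call of the difference, and 10 named genes as black dots. The dashed diagonal marks equal change. Clspn and Klf2 lie near it, Hsp90aa1, Hspe1 and Pgam1 far above it, and Rps24, Stat2, Fcrla and Cnga1 far below it. Each region was scaled on its own.

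Genes of DNA replication and mitosis rose in both exons and introns. All 47 of these genes that were members rose in exons and 46 rose in introns, with medians of 4.18 and 4.08 on the log2 scale, against medians near 0 over all members. The median difference was 0.01, with 8 genes above and 6 below 0 at the threshold, where 23.9% and 24.8% of all members were. With exonic scaling of both regions the intronic median was 2.86 and the median difference 1.25, with 37 genes above and 0 below. Of the 47 genes, 8 averaged under 10 counts in 1 state and so passed the filter through the other. Clspn, the checkpoint adaptor claspin at chr4:126556957-126594533 (GRCm38), had exonic levels of 169, 167, 158 and 163 CPM in the 4 stimulated libraries and 2.43, 4.25 and 3.34 CPM in the 3 naive libraries. Its intronic levels were 161, 103, 120 and 101 CPM in stimulated and 1.53, 2.05 and 1.21 CPM in naive libraries. All stimulated libraries were above all naive ones in both regions. The exonic change was 5.61 ± 0.14 (log2, SE) and the intronic change 6.20 ± 0.28, and their difference of -0.58 ± 0.28 was not called (edgeR, adjusted p = 0.104).

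Dtl, a substrate receptor of an S-phase ubiquitin ligase, is not in the replication list and changed by 6.41 ± 0.17 in exons and 5.77 ± 0.35 in introns. Shcbp1, a protein of dividing cells, changed by 5.77 ± 0.16 and 6.04 ± 0.23. Neither difference was called (edgeR, adjusted p = 0.156 and 0.498). An uncalled difference was a condition for naming Clspn, Dtl and Shcbp1, and S1pr1, Klf2 and Hsd11b1 below, and is no result about them. Some genes of the list did differ between the regions. Pcna, the sliding clamp of the replication fork, had 723, 700, 702 and 727 exonic CPM in stimulated and 157, 132 and 111 in naive libraries, which do not overlap, while its intronic levels of 156, 214, 139 and 200 CPM in stimulated and 188, 108 and 112 CPM in naive libraries did. Its exonic change of 2.42 ± 0.12 stood above an intronic change of 0.38 ± 0.22, with a difference of 2.02 ± 0.20 (edgeR, adjusted p = 3.69e-06). Mcm4, a subunit of the replicative helicase, differed by 0.91 ± 0.16 in the same direction. Cdk1, the mitotic kinase, lay on the other side, with an exonic change of 5.58 and an intronic change of 7.04. The mitotic kinase Plk1 had a difference of 2.93 ± 0.23, but its deposited intron width exceeds the span of the gene in RefSeq, so its intronic counts may hold reads of other genes.

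E2F factors drive many replication genes, and their textbook site was searched in the promoters of these genes, since they moved together in both regions. The letters TTCCCGC, on either strand, were found in 11 of the 37 replication genes with a RefSeq promoter (29.7%), against 10.3% of 8424 members and 4.6% of 32851 promoters of the same length (250 bases before to 50 after the start, GRCm38.p6). The last 150 bases before the start are shown for 3 of them, with the site in capitals; Cdc6 has it on the opposite strand. Uhrf1 (chr17:56303187-56303336, plus strand) encodes a partner of DNA methylation at forks, Cdc6 (chr11:98908001-98908150, plus) a loader of the helicase and Rrm1 (chr7:102441545-102441694, plus) a subunit of ribonucleotide reductase.
Uhrf1: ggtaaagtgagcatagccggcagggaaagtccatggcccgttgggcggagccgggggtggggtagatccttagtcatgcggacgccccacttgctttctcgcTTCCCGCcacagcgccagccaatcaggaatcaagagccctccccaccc
Cdc6: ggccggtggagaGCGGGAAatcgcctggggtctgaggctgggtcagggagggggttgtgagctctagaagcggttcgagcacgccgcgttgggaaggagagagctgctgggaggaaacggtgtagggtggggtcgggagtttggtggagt
Rrm1: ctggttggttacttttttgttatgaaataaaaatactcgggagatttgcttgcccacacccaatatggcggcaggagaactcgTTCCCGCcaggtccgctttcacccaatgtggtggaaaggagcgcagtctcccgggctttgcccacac
Exonic and intronic changes were 5.68 and 6.79 for Uhrf1, 5.29 and 5.97 for Cdc6 and 4.17 and 3.21 for Rrm1. The presence of these letters is a description of the sequence and says nothing of the factor.

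Genes of the naive and quiescent state mostly fell in both regions. Of 25, 20 fell in exons and 19 in introns, with median log2 changes of -2.54 and -2.04. S1pr1, the receptor that guides T cells out of lymph nodes, had exonic levels of 11.7, 12.8, 14.5 and 8.03 CPM in stimulated and 781, 835 and 814 CPM in naive libraries. Its intronic levels were 2.01, 3.14, 5.88 and 1.23 CPM in stimulated and 94.5, 140 and 227 CPM in naive libraries, so that the groups were far apart in both regions. Its changes were -6.11 ± 0.16 in exons and -5.65 ± 0.40 in introns, and the difference was not called (edgeR, adjusted p = 0.279). Klf2, the transcription factor that maintains S1pr1 and quiescence, fell in both regions, with changes of -5.33 ± 0.24 in exons and -4.79 ± 0.26 in introns. Its difference of -0.52 ± 0.22 was not called (edgeR, adjusted p = 0.0617), although its exon to intron ratios did not overlap between the groups. Hsd11b1, which regenerates active glucocorticoid and is not in this list, changed by -6.56 in exons and -6.37 in introns. Exons of Lamb3 lie in its introns.

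The difference was called in some other genes of this list. Il7r, the receptor chain for the survival cytokine IL-7, had exonic levels of 10.8, 17.4, 17.3 and 9.77 CPM in stimulated and 618, 662 and 550 CPM in naive libraries, and intronic levels of 21.8, 42.9, 22.3 and 23.9 CPM against 283, 378 and 387 CPM. The fall was steeper in exons (-5.46 ± 0.19) than in introns (-3.66 ± 0.24), with a difference of -1.82 ± 0.22 (edgeR, adjusted p = 2.21e-05). Pik3ip1, an inhibitor of PI3 kinase, fell in the same manner with a difference of -1.64 ± 0.22 that was -0.41 and not called with exonic scaling, and so did the transcription factor Foxo1 (-1.41). Btg1, an antiproliferative factor that recruits deadenylases, was the reverse. Its exons had 261, 291, 299 and 296 CPM in stimulated and 1837, 1799 and 1710 CPM in naive libraries, and its introns 5.27, 5.14, 5.88 and 7.36 against 118, 122 and 214 CPM. It changed by -2.63 ± 0.09 in exons and -4.68 ± 0.26 in introns, a difference of 1.99 ± 0.26 (edgeR, adjusted p = 3.76e-05). Of related genes, Tob1 had a difference of 1.61 (0.16 in KO and 1.22 in TG cells), while Btg2 had -0.08, which was not called. Over the list 5 of 25 genes were above and 7 below 0, close to the 23.9% and 24.8% of all members, with a median difference of -0.44 that becomes 0.79 with exonic scaling of both regions.

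**Figure D2:**
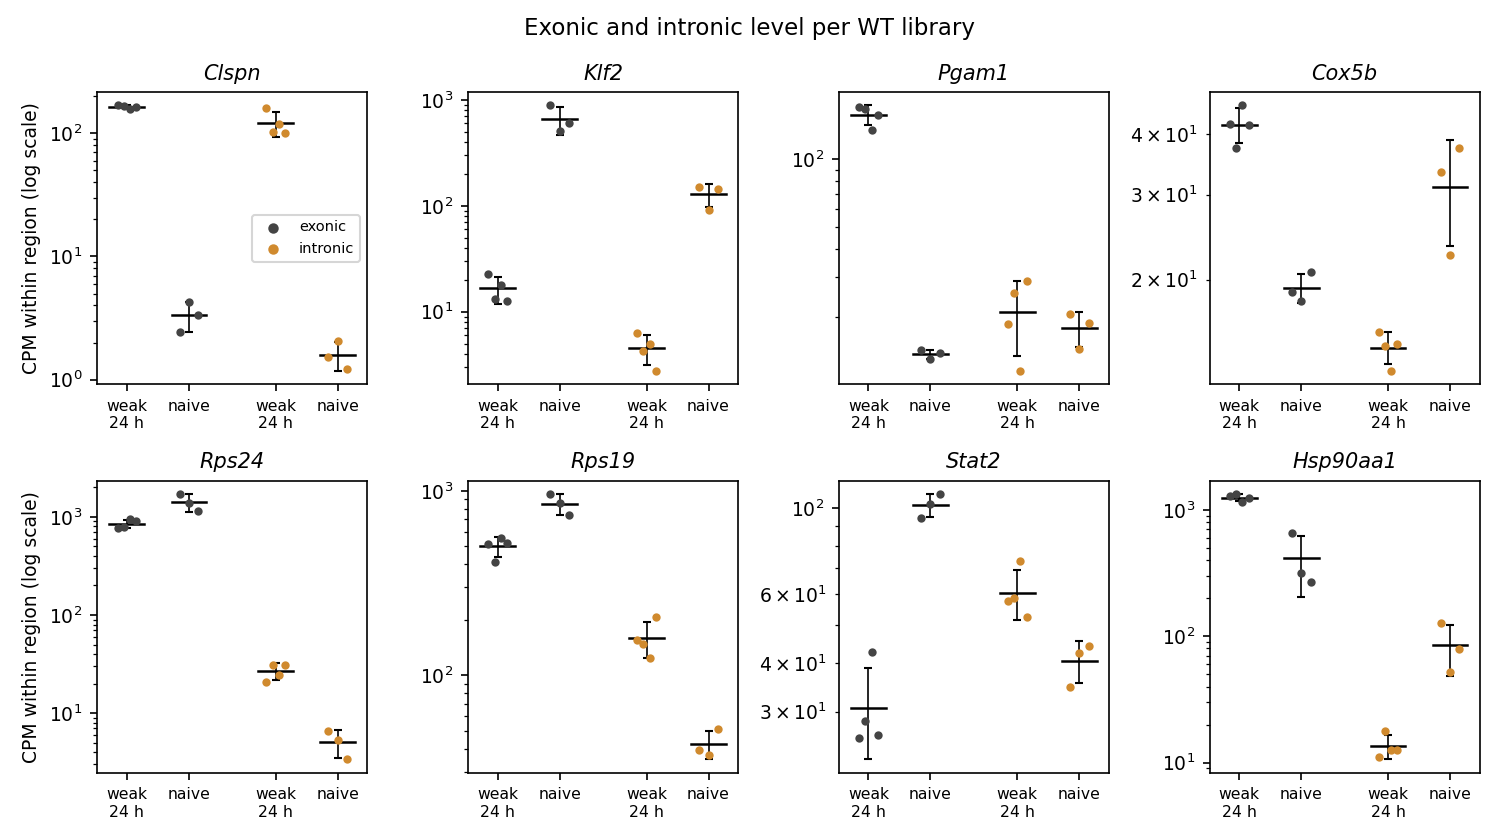
Exonic (grey) and intronic (orange) levels of 8 genes in CPM within each region, on log axes, with 1 point per WT library, weak 24 h on the left and naive on the right of each pair. Black lines are means and bars are SD (n = 4 and 3). Clspn and Klf2 change in the same direction in both regions, without a called difference. Pgam1 and Cox5b rise in exons while the introns of Pgam1 overlap and those of Cox5b fall. Rps24, Rps19 and Stat2 fall in exons while their introns rise on intronic scaling (that of Stat2 falls on exonic scaling). Hsp90aa1 rises in exons while its introns fall.

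Metabolic genes rose in exons far more than in introns. Of 49 respiratory chain subunits, 45 rose and 1 fell in exons, while 9 rose and 10 fell in introns (0 and 42 with exonic scaling of both regions). Their median change was 0.95 in exons and -0.07 in introns, and 40 had an exonic change above the intronic and 0 below, where 23.9% and 24.8% of all members did. Cox5b, a subunit of cytochrome c oxidase, had exonic levels of 42.0, 37.5, 45.9 and 41.9 CPM in stimulated and 18.8, 18.1 and 20.7 CPM in naive libraries. Its introns had 15.6, 14.6, 12.9 and 14.7 CPM in stimulated and 33.5, 22.5 and 37.5 CPM in naive libraries. The exons were thus higher and the introns lower in every stimulated library, with changes of 1.12 ± 0.10 and -1.11 ± 0.22 and a difference of 2.20 ± 0.22 (edgeR, adjusted p = 4.18e-06). The difference was 2.0 ± 0.18 for Cox5a of the same complex, 1.66 ± 0.16 for Sdhb, the iron-sulfur subunit of complex II, and 2.46 for Cycs, which encodes cytochrome c. Ndufb3 and Cox4i1 had differences of -0.49 and -0.27, which were not called.

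Glycolytic enzymes followed the same pattern. Of 20 members, 14 rose and 2 fell in exons, 8 rose and 3 fell in introns (3 and 12 with exonic scaling), and 14 had an exonic change above and 1 below the intronic change. Pgam1, the phosphoglycerate mutase, had exonic levels of 170, 168, 135 and 158 CPM in stimulated and 14.2, 12.9 and 13.7 CPM in naive libraries. Its introns had 18.6, 25.4, 11.5 and 28.8 CPM in stimulated and 20.5, 14.3 and 18.8 CPM in naive libraries. Only the exonic groups were apart, with an exonic change of 3.53 ± 0.11, an intronic change of 0.24 ± 0.28 and a difference of 3.32 ± 0.24 (edgeR, adjusted p = 3.54e-07). Ldha, lactate dehydrogenase A, had 2635, 2843, 2294 and 2586 exonic CPM in stimulated and 487, 413 and 412 in naive libraries, with a difference of 2.47 ± 0.20. Pfkl, the liver-type phosphofructokinase subunit, had a difference of 2.10 ± 0.23.

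Further groups of the growth response shared this direction. All 31 proteasome subunits rose in exons (median 1.52), 17 rose and 2 fell in introns (median 0.51; 0 and 21 with exonic scaling), and 26 had an exonic change above the intronic and 0 below. Psmd8, a subunit of the regulatory lid, differed by 1.98 ± 0.18, and the core subunits Psmb4 and Psmb2 by 1.93 ± 0.19 and 1.45 ± 0.15. Among 29 sterol and fatty acid synthesis genes 26 rose and 2 fell in exons, 12 rose and 3 fell in introns (2 and 17 with exonic scaling), and 20 differences were above and 2 below 0. Idi1, the isopentenyl diphosphate isomerase, differed by 2.92 ± 0.29, and Msmo1, a methylsterol oxidase, by 1.75 ± 0.24. Among 27 amino acid and one-carbon genes the differences were above 0 in 16 and below in 2, with the exonic medians at 2.01 and the intronic at 1.5 (0.30 with exonic scaling). Mthfd1, a folate enzyme of one-carbon metabolism, changed by 2.68 ± 0.10 in exons and by 1.57 ± 0.16 in introns, a difference of 1.11 ± 0.15 (edgeR, adjusted p = 4.98e-05). The glycyl- and isoleucyl-tRNA synthetases Gars and Iars differed by 1.62 ± 0.16 and 1.46 ± 0.15.

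The apparatus that builds ribosomes rose in exons, and less in introns. All 40 ribosome biogenesis genes rose in exons (median 1.97) and 32 rose and 0 fell in introns (median 1.23; 8 and 9 with exonic scaling), with 28 differences above and 0 below 0. Nolc1, a nucleolar chaperone of snoRNPs, had 983, 885, 823 and 800 exonic CPM in stimulated and 136, 126 and 132 in naive libraries, and 37.1, 53.1, 37.6 and 36.8 intronic CPM against 26.7, 22.5 and 22 CPM. Both regions were higher in every stimulated library, by 2.73 ± 0.10 and 0.79 ± 0.20 (the second -0.46 with exonic scaling), and the difference was 1.94 ± 0.19 (edgeR, adjusted p = 3.42e-06). Ltv1 and Dcaf13, factors of small subunit assembly, differed by 1.62 ± 0.18 and 1.45 ± 0.15. Translation factors were similar, with 30 of 38 up and 2 down in exons and 25 differences above and 5 below 0. Eif4a1, the cap-dependent RNA helicase, differed by 1.99 ± 0.16, whereas Eif4b, its cofactor, differed by -1.61 ± 0.17. The introns of Eif4b had 601, 614, 701 and 498 CPM in stimulated and 94.9, 117 and 108 CPM in naive libraries, and its exons 1045, 1023, 1171 and 1027 against 579, 568 and 580 CPM. Eif4b rose in both regions, in introns by 2.50 ± 0.17 and in exons by 0.89 ± 0.08, and with exonic scaling its difference was -0.38 and not called.

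Cytosolic ribosomal proteins went against the rest of the translation machinery. Of 80 genes 37 fell and 10 rose in exons (median -0.22), whereas in introns 54 rose and 4 fell (median 0.89). The exonic change was below the intronic in 54 and above it in 2, with a median difference of -1.08 that becomes 0.16, with 26 genes above and 18 below 0, under exonic scaling of both regions, so its sign depends on the scaling and its place below the typical gene does not. Under that scaling 16 of the 80 rose and 35 fell in introns, with a median of -0.34. Rps24, a small subunit protein at chr14:24490678-24496960, had exonic levels of 778, 786, 943 and 899 CPM in stimulated and 1719, 1388 and 1146 CPM in naive libraries. Its introns had 20.8, 31.1, 24.4 and 31.3 CPM in stimulated and 6.65, 5.36 and 3.37 CPM in naive libraries. Exons were lower and introns higher in every stimulated library, by -0.74 ± 0.13 and 2.37 ± 0.28, and the difference was -3.12 ± 0.22 (edgeR, adjusted p = 2.62e-07). Rps19, another small subunit protein, had exonic levels of 515, 410, 559 and 520 CPM in stimulated and 962, 855 and 737 CPM in naive libraries and a difference of -2.67 ± 0.23. Rpl13 of the large subunit differed by -1.95 ± 0.18. The genes on the other side were Rps2 (1.15) and Rps13 (0.85). Ribosomal protein genes have many processed copies in the genome, and the authors' handling of reads shared with them is not given in the sources used here, and their exonic values are less certain than those of single-copy genes.

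Ribosomal protein mRNAs usually start with a C followed by a run of pyrimidines, the TOP motif, through which mTOR controls their translation. With the rule of a C at the start and 4 pyrimidines after it, RefSeq promoters of 14 of 59 matched ribosomal protein genes held the motif (23.7%), against 3.06% of members and 2.51% of all promoters in the table. The letters from 40 bases before the start to 15 after it are shown for 3 of them, with the pyrimidine run from the start in capitals. These are Rps18 (chr17:33955651-33955705, minus strand), Rpl28 (chr7:4792925-4792979, plus) and Rps15a (chr7:118116133-118116187, minus), from RefSeq on GRCm38.p6.
Rps18: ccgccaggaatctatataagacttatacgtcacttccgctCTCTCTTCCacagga
Rpl28: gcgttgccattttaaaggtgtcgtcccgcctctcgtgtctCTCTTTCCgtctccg
Rps15a: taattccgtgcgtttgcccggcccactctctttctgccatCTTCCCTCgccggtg
Exonic and intronic changes were -0.42 and 1.88 for Rps18, -0.28 and 1.74 for Rpl28 and -0.98 and 1.65 for Rps15a.

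**Figure D3:**
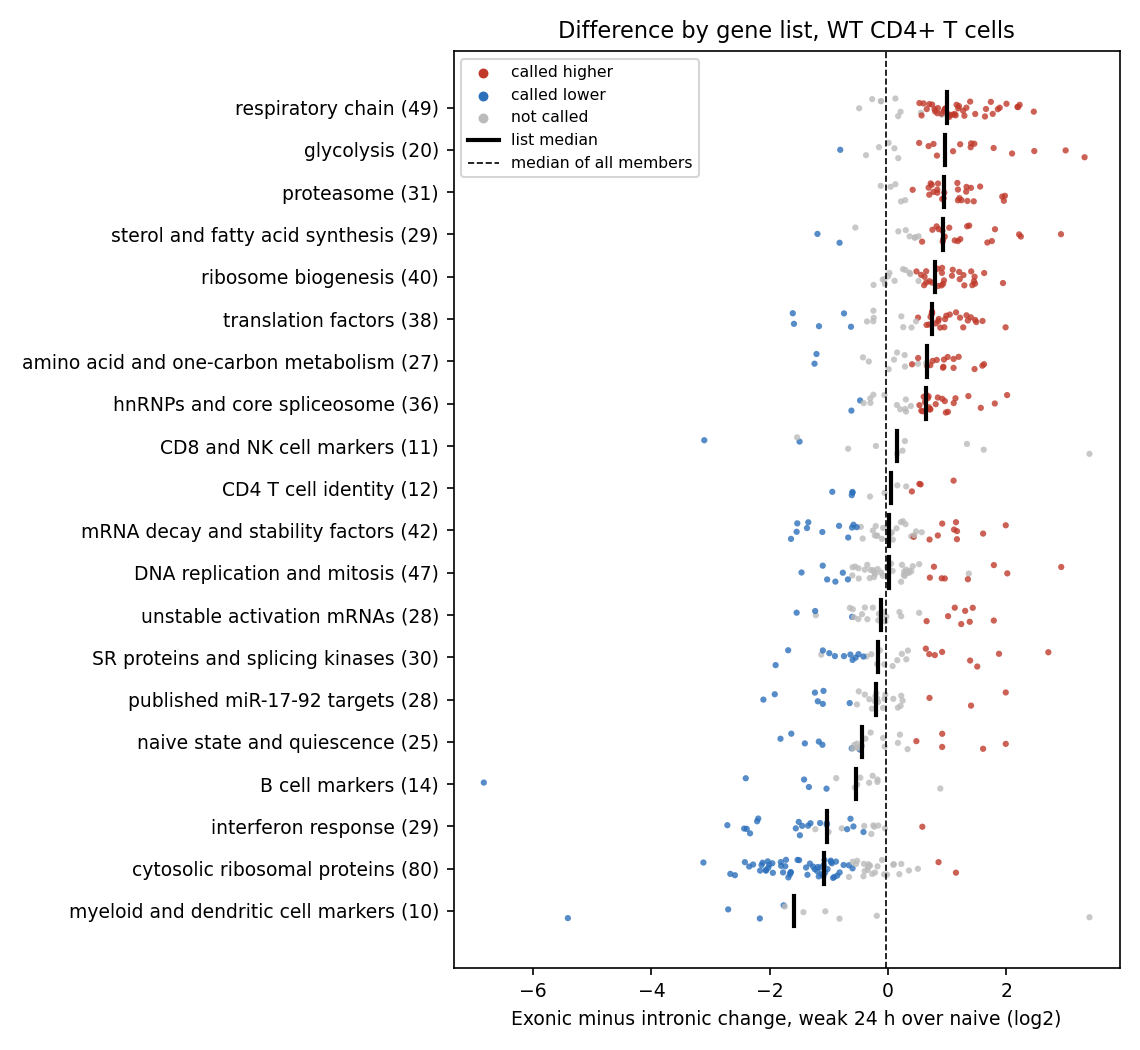
Exonic minus intronic log2 change, weak 24 h over naive, of each member in 20 gene lists (the number of members in brackets), coloured by its call, with the list median as a black bar and the median of all 10417 members as a dashed line. Respiratory chain, glycolysis and proteasome lie to the right, and interferon response and cytosolic ribosomal proteins to the left. With exonic scaling of both regions all values move right by about the same amount (a median of 1.2), and the medians of all lists left of 0 turn positive except that of the myeloid markers.

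Interferon response genes mostly fell in both regions, and relative to the typical gene further in exons. Of 29 members 25 fell and 1 rose in exons, 19 fell and 3 rose in introns (28 and 0 with exonic scaling), and the exonic change was below the intronic in 19 and above it in 1. Of these members 5 averaged under 10 counts in 1 state. The median difference was -1.04, which becomes 0.18 with exonic scaling of both regions, with 11 genes above and 6 below 0. Its sign thus depends on the scaling. Stat2, which carries the interferon signal to the nucleus, had exonic levels of 25.7, 28.4, 42.8 and 26.1 CPM in stimulated and 94.3, 102 and 108 CPM in naive libraries. Its introns had 57.7, 58.6, 72.9 and 52.4 CPM in stimulated and 34.8, 42.3 and 44.2 CPM in naive libraries. Exons were lower and introns higher in every stimulated library, with changes of -1.73 ± 0.16 and 0.58 ± 0.18, the second -0.65 with exonic scaling (difference -2.33 ± 0.17, edgeR, adjusted p = 2.81e-07). Dhx58 and Ddx58, sensors of viral RNA, fell in both regions, with differences of -2.20 ± 0.30 and -1.35 ± 0.19, the second -0.12 and not called with exonic scaling. Irf7, the factor that amplifies the response, changed by -5.49 in exons and -3.09 in introns. Trim25, the ubiquitin ligase that acts on Ddx58, was the 1 gene above 0 (0.58).

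The interferon-stimulated response element was searched on both strands as GAAA, any 2 bases and GAAA again. It was found in 10 of 21 interferon response genes with a RefSeq promoter (47.6%), against 3.96% of members and 3.44% of all promoters. The last 200 bases before the start are given for 3 genes of antiviral proteins, with the element in capitals, overlapping matches merged; Ifit3 has it on the opposite strand. They are Ifit3 (chr19:34583329-34583528, plus strand), Oas3 (chr5:120777660-120777859, minus) and Oas1a (chr5:120907526-120907725, minus), from RefSeq on GRCm38.p6.
Ifit3: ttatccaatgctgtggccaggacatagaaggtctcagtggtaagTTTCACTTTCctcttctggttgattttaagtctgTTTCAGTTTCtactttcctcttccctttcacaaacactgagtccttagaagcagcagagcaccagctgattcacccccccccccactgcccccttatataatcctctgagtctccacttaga
Oas3: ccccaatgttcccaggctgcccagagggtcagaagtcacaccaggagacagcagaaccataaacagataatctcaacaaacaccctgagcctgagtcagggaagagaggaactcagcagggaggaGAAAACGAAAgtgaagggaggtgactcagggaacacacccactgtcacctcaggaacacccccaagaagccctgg
Oas1a: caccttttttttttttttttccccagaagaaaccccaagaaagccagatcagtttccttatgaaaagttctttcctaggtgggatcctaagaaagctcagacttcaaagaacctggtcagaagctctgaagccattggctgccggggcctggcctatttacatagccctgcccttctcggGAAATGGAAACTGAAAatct
Changes in exons and introns were -3.47 and -1.03 for Ifit3, -3.41 and -1.94 for Oas3 and -4.70 and -3.79 for Oas1a, the last without a called difference.

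Splicing factors differed among themselves. Of 36 hnRNPs and core spliceosome genes 29 rose and 5 fell in exons, 16 rose and 5 fell in introns (1 and 25 with exonic scaling), and 23 differences were above and 2 below 0 (median 0.64). Snrpd1, a Sm protein of the snRNPs, had 168, 168, 189 and 171 exonic CPM in stimulated and 42.9, 33.9 and 30.8 in naive libraries and a difference of 1.80 ± 0.19. Ptbp1, the polypyrimidine tract binding protein, differed by 1.57 ± 0.18. The SR proteins and their kinases had calls on both sides, with 8 of 30 above and 11 below 0, where 23.9% and 24.8% of all members were. With exonic scaling these counts were 24 and 2. The SR proteins Srsf9 (2.71), Srsf1 (1.88) and Srsf2 (1.39) and the related Tra2a (1.51 ± 0.16) were above, and the SR protein Srsf4 (-0.60) was below. The kinases Clk4, Clk1 and Srpk2 were below, at -1.69 ± 0.17, -0.75 and -0.42. Clk2 (-0.28), Clk3 (0.16) and Srpk1 (0.08) had no called difference.

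Luc7l, a U1 snRNP associated factor, was called in introns and not in exons. Its exons had 163, 154, 136 and 145 CPM in stimulated and 159, 165 and 174 CPM in naive libraries, and the groups overlapped. Its introns had 1237, 1390, 1693 and 1422 CPM in stimulated and 446, 387 and 450 CPM in naive libraries, higher in each stimulated library. The intronic change was 1.75 ± 0.16 and the difference -1.90 ± 0.19 (edgeR, adjusted p = 4.75e-06). Clk4 had 34.4, 31.9, 40.0 and 33.7 exonic CPM in stimulated and 182, 167 and 128 in naive libraries, and 85.3, 86.8, 92.5 and 101 intronic CPM against 129, 123 and 133. It fell in both regions, with changes of -2.18 ± 0.12 in exons and -0.49 ± 0.14 in introns.

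Factors of mRNA decay had called differences about as often as all members. Of 42 members 17 rose and 20 fell in exons, 8 rose and 14 fell in introns (1 and 37 with exonic scaling), and 10 differences were above and 11 below 0, where 23.9% and 24.8% of all members were (33 and 0 of the 42 with exonic scaling). Smg1, the kinase of nonsense-mediated decay, had 267, 315, 307 and 281 exonic CPM in stimulated and 1007, 1040 and 1042 in naive libraries. Its introns had 162, 167, 144 and 154 CPM in stimulated and 211, 197 and 134 CPM in naive libraries. Only its exonic groups were apart, and the difference was -1.64 ± 0.20 (edgeR, adjusted p = 2.00e-05). With exonic scaling it was -0.41 and not called (edgeR, adjusted p = 0.202). Tnrc6a, which links Argonaute to the deadenylases, differed by -1.35 ± 0.17 (-0.12 and not called with exonic scaling), Tnrc6b by -1.54, and the deadenylase subunits Pan3 and Pan2 by -1.11 and -0.83. The RNase Zc3h12a (1.15) and the decapping enzyme Dcp2 (1.16) were above 0.

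Short-lived mRNAs of T cell activation had no called difference in 17 of 28 members, as did 51.4% of all members. Of 38 such genes 28 were members, 11 rose and 17 fell in exons, 10 rose and 15 fell in introns (6 and 17 with exonic scaling), and 8 differences were above and 3 below 0 (21 and 0 with exonic scaling). Of the 28, 4 averaged under 10 counts in 1 state. Il2, the growth cytokine, changed by 6.43 in exons and 6.95 in introns, Il2ra, its receptor chain, by 4.43 and 4.17, and Fos by -5.71 and -4.33, with no called difference in these 3. Tnfrsf4, the costimulatory receptor OX40, rose more in exons. It had 385, 377, 279 and 353 exonic CPM in stimulated and 18.6, 18.6 and 20.9 in naive libraries, and 37.9, 52.9, 35.8 and 46.0 intronic CPM against 5.23, 5.95 and 7.69, with a difference of 1.38 ± 0.19 (edgeR, adjusted p = 6.21e-05). Nfkbid, an atypical inhibitor of NF-kB, differed by 1.79 ± 0.26, and its relative Nfkbiz by -1.23 ± 0.16, which was 0 within rounding and not called with exonic scaling. Zfp36, which destabilises AU-rich mRNAs and was in both lists, differed by -1.55, with changes of -4.68 and -3.09.

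Published targets of miR-17∼92 were divided. Of 28 members 3 differences were above and 7 below 0, where 23.9% and 24.8% of all members were, with a median of -0.21 (20 above and 2 below with exonic scaling). E2f2, an E2F factor of T cell proliferation, had 64.3, 66.1, 57.4 and 65.1 exonic CPM in stimulated and 42.9, 46.4 and 46.3 in naive libraries, and 122, 92.9, 69.0 and 106 intronic CPM against 12.8, 21.3 and 21.9. Both regions were higher in stimulated cells, the introns more so (0.48 ± 0.08 and 2.39 ± 0.25, difference -1.92 ± 0.21, edgeR, adjusted p = 9.19e-06). Ikzf4 differed by -2.11 ± 0.27, and Hbp1 and Zbtb4, transcription repressors, by -1.24 and -1.09. Btg1, described above, is also in this list and was above 0, at 1.99 ± 0.26. Bcl2l11, which restrains survival, had a difference of -0.06 that was not called.

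Among the 8715 members with enough counts to be named, the 6 largest positive differences included 3 heat shock genes, Hsp90aa1, Hspe1 and Hsph1. Hsp90aa1, the inducible HSP90 at chr12:110691036-110696395, had exonic levels of 1277, 1341, 1146 and 1231 CPM in stimulated and 654, 318 and 270 CPM in naive libraries. Its introns had 11, 17.7, 12.6 and 12.6 CPM in stimulated and 126, 52.5 and 78.8 CPM in naive libraries. Exons were higher and introns lower in every stimulated library, by 1.59 ± 0.25 and -2.67 ± 0.28, with a difference of 4.29 ± 0.22 (edgeR, adjusted p = 1.91e-08). Hspe1, the mitochondrial co-chaperonin, changed by 1.93 ± 0.19 and -2.30 ± 0.30, and Hsp90ab1, the constitutive HSP90, by 1.53 ± 0.15 and -1.51 ± 0.24. Hsph1, an HSP110 chaperone, had introns at 38.1, 44.0, 31.7 and 40.8 CPM in stimulated and 1363, 334 and 385 CPM in naive libraries, while its exons overlapped between the groups. Naive replicate 1 was the highest library for both regions of Hsph1. Without it the difference was 3.94 for Hsph1 and 4.34 for Hsp90aa1.

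The chemokine Xcl1 had 30.5, 29.7, 36.1 and 23.9 exonic CPM in stimulated and 2.68, 2.06 and 3.43 in naive libraries, and a difference of 4.17 ± 0.39. Its introns averaged only 10.0 counts in stimulated libraries. Mpp7, a membrane scaffold, had 48.7, 37.7, 40.8 and 31.0 intronic CPM in stimulated and 264, 259 and 311 in naive libraries, while its exons had 20.6, 22.9, 19.9 and 18.9 against 10.6, 9.13 and 7.88 CPM. The difference of Mpp7 was 3.98 ± 0.20. Dnah7a, a dynein heavy chain, differed by 4.04 ± 0.40 at low exonic levels of 6.82 ± 0.79 CPM in stimulated and 0.288 ± 0.21 CPM in naive cells.

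Of the 6 largest negative differences among the same 8715 members, all but that of Afmid belonged to genes with a mean under 10 exonic counts in stimulated cells. Cnga1, a cyclic nucleotide-gated channel subunit at chr5:72603696-72642752, had exonic levels of 0.314, 0.309, 0 and 0.307 CPM in stimulated and 21.0, 17.4 and 15.8 CPM in naive libraries. Its introns had 316, 373, 376 and 368 CPM in stimulated and 52.6, 51.8 and 63.8 CPM in naive libraries. The regions moved in opposite directions in every library, by -6.24 ± 0.34 and 2.68 ± 0.16, with a difference of -8.90 ± 0.34 (edgeR, adjusted p = 1.67e-09). Fcrla, a B cell protein, had 0.314, 0.206, 0.364 and 0.511 exonic CPM in stimulated and 5.83, 9.80 and 14.8 in naive libraries, against 62.7, 62.9, 63.2 and 81.5 intronic CPM in stimulated and 14.7, 13.1 and 21.1 in naive libraries. Car1, a carbonic anhydrase of red cells, and Lncpint, a long non-coding RNA, differed by -6.33 ± 0.72 and -4.68 ± 0.25, the introns of Lncpint changing by 1.11, or -0.17 with exonic scaling. Itgad, an integrin chain of macrophages, differed by -7.70 ± 0.57, but its deposited intron width exceeds the RefSeq span of the gene, and its intronic change was 0.03, or -1.15 with exonic scaling.

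Afmid, kynurenine formamidase, overlaps a gene of replicating cells. Its introns had 1475, 1512, 1466 and 1624 CPM in stimulated and 177.5, 174.5 and 265.4 CPM in naive libraries, and exons of Tk1, the thymidine kinase, lie within them. Tk1 itself rose by 4.32 in exons. Of all members 1236 (11.9%) had exons of another counted gene in their introns or an intron width above their span, and this held for 42 of the 257 members with falling exons and rising introns (16.3%) and for 24 of the 285 with the reverse (8.42%). An upstream gene on the same strand within 20000 bases was found for 69 of the 257, and its exons rose in 55.1% of these, against 42.2% for the 285 and 40.1% for all members. The part of read-through from such neighbours was not tested. Without the 1236 genes, 4430 differences were called, of which 4421 were among the 5067 of all members.

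Genes with short exons more often had an exonic change above the intronic. Members were split into 4 groups of equal size by each property. In the 2605 members with the shortest summed exons (183 to 2103 bases) 35.2% were above and 16.1% below 0, and in the 2604 with the longest (5290 to 33075 bases) 11.6% and 37.1%. Spearman's rho over the 10417 genes was -0.24 for exon width, -0.11 for intron width and 0.25 for the mean exonic count. These points share libraries, and width and count both rise with length. The exonic change had medians of 0.29 and -0.35 in the shortest and the longest group, whereas the intronic medians were -0.01 and -0.03. In the group with the fewest exonic counts, 7.64% of differences were called above and 29.1% below 0, at a median standard error of 0.39, against 0.18 in the group with the most.

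The same measure was repeated in KO and TG cells, whose libraries played no part in choosing the genes. In KO cells 47.1% of the 10417 differences were called and in TG cells 48.9%. Of the 5067 differences called in WT cells, 4052 were called in the same direction in KO cells (80% of the WT and 82.7% of the KO calls) and 3952 in TG cells (78% and 77.6%). No gene was called in the opposite direction in KO cells and 1 in TG cells, Rasa1, a Ras GTPase activating protein, at 0.40 in TG and -0.58 in WT cells. Across genes the difference correlated between KO and WT cells with a Pearson's r of 0.895 and between TG and WT cells with 0.887, a description only, since genes are not independent replicates and share their widths and counting.

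Most members called in opposite directions in exons and introns had a difference called on the same side in KO and TG cells as in WT cells. Of the 257 members with falling exons and rising introns, 247 had a called negative difference in KO and 241 in TG cells, and of the 285 with the reverse 278 and 275 had a called positive one. Over all members, 24.5% were called below and 22.5% above 0 in KO cells, and 24.2% and 24.7% in TG cells. The median difference of the ribosomal proteins was -1.17 in KO and -1.26 in TG cells, that of the interferon genes -1.17 and -1.13, that of the respiratory chain 0.81 and 0.78 and that of the proteasome 0.76 and 0.89. Lists with a WT median near 0 could change sign, as the CD4 T cell genes did (-0.11 in KO and -0.10 in TG cells, against 0.05 in WT cells). For Rps24 the difference was -3.31 in KO and -3.33 in TG cells, for Cnga1 -8.56 and -8.99 and for Pgam1 2.94 and 2.69. Hsp90aa1 had 3.37 in KO and 3.66 in TG cells. Genes named for a concordant change in WT cells could have a called difference in the other genotypes. These were Dtl (1.01 in KO and 1.22 in TG cells), S1pr1 (-1.23 in KO and -0.83 in TG cells), Clspn (-1.27 in TG cells) and Klf2 (-0.67 in KO cells). Shcbp1 and Hsd11b1 were called in neither. Mcm4 (0.42 in KO and 0.55 in TG cells) and Themis (-0.37 and -0.38) had a called difference in WT cells only. Whether the difference itself varied with the genotype was not tested.

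**Figure D4:**
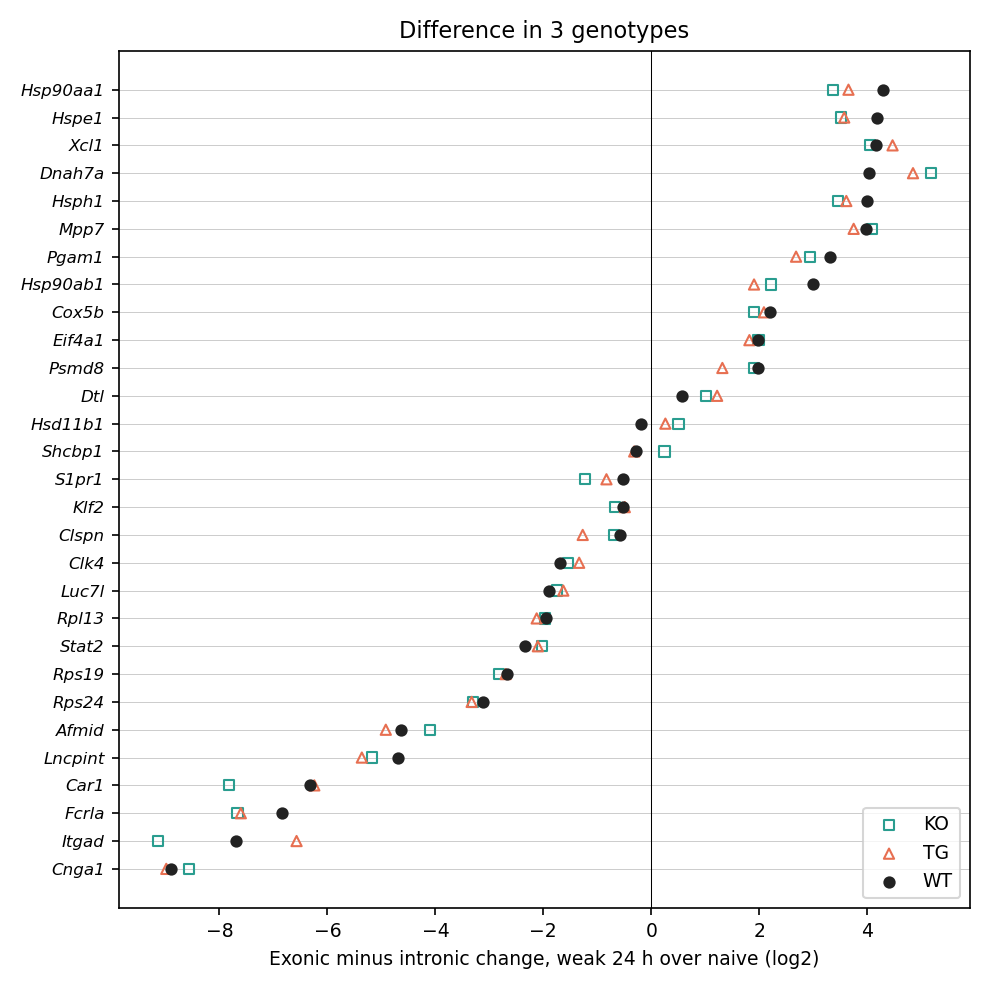
Exonic minus intronic log2 change, weak 24 h over naive, of 29 named genes (rows) in KO (squares), TG (triangles) and WT cells (filled circles). Genes far from 0 lie on the same side in all 3 genotypes. Hsd11b1 and Shcbp1, near 0, do not.

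The other 3 stimulated states of WT cells share the naive libraries, so their values are given side by side only. The median difference of the ribosomal proteins was -0.92 after 24 h and -1.03 after 48 h of the very weak stimulus and -0.90 after 48 h of the weak stimulus. The respiratory chain had 0.97, 0.75 and 0.84 in the same states, and the interferon response -1.15, -0.51 and -0.51. DNA replication genes had -0.02, -0.15 and -0.03.

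Markers of other cells mostly fell with stimulation. Many passed the count filter through 1 state, since 5 of 14 B cell, 9 of 10 myeloid and dendritic and 9 of 11 CD8 and NK cell members averaged under 10 counts in 1 state, so the counts of these lists are a description only. All 14 B cell genes fell in exons (median -3.38) and 13 fell and 1 rose in introns (median -2.35), the rise being that of Fcrla. The difference was called below 0 in 5 and above in 0, among them H2-Aa, an MHC class II chain, at -1.04 ± 0.25, which was 0.20 and not called with exonic scaling and not called without the library term. All 10 of 20 myeloid and dendritic genes that were members fell in exons, and 4 differences were below and 0 above 0. Ctss, the protease cathepsin S, had 50.5, 60.4, 64.4 and 60.2 exonic CPM in stimulated and 237, 238 and 220 in naive libraries, while its introns overlapped, with 33.1, 44.0, 58.8 and 48.1 against 41.9, 55.0 and 63.1 CPM, a difference of -1.77 ± 0.19. Among 11 CD8 and NK cell genes 9 fell and 1, Crtam, rose in exons, and 2 differences were below and 0 above 0. The CD4 T cell genes themselves had calls on both sides, with 4 of 12 above and 4 below 0, where 23.9% and 24.8% of all members were. Lat, the adaptor of the T cell receptor, differed by 1.11 ± 0.20, and Cd3g, a chain of that receptor, by -0.94 ± 0.24, which becomes 0.29 with exonic scaling of both regions. The erythroid and histone lists had 1 member each.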

How the data were processed

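Counts per gene were used as the authors deposited them: an exon table and an intron table of raw whole numbers, each with a width per gene, per the file headers. Build mm10, STAR 2.5.2a, FastQC 0.11.5, edgeR 3.24.3 and R 3.5 are named in the submitters' processing notes. How reads were assigned to exons or introns, by which annotation and with or without strand, is not given in the sources used here, and reads of overlapping or antisense genes cannot be told apart. For Cnga1 the exon table did not hold the intronic reads, with a mean of 1262 intronic counts in stimulated libraries beside exonic CPM under 1. Gene IDs were matched to RefSeq or GENCODE symbols (23975 of 24028). Each library has 1 column in each table, matched by its title, and duplicates were looked for and not found.

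Tests were quasi-likelihood fits in edgeR 4.0.16 under R 4.3.3, with TMM factors computed within each region (0.969 to 1.038 for exons, 0.907 to 1.13 for introns), and Benjamini-Hochberg adjustment over all genes fitted. Exonic and intronic changes were fitted on all genes with a mean of at least 10 counts, with 5 residual degrees of freedom. The difference was fitted on 14 columns with library, region and region by state terms, also with 5. A standard error is the log2 change divided by the square root of F. The procedure was tested on simulated counts of a spread set in advance, with 1 false call among 10217 unchanged genes. Far fewer genes changed there than were called in the data, so this is not the error rate of the data. Promoters were read from RefSeq (GRCm38.p6), and 13 members had no symbol. DESeq2 1.42.0 and other settings were alternatives.

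Named genes are the 6 largest differences in each direction, the 3 largest opposite changes each way, the 3 largest concordant rises and falls and up to 3 members of each of 22 lists by smallest adjusted p of the difference, among symbols with at least 10 intronic counts in each state and 5 exonic CPM in 1 state, without gene models and receptor segments. The concordant genes had to be called in both regions without a called difference, so that their uncalled difference was set by the choice. Further members of a list are quoted with their values from the list. The genes, lists and rules were chosen with earlier results of these data known. Intervals for counting were not needed, and errors are SD over libraries or SE of the fit. Reads carry no molecular identifiers.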

Additional observations from a re-analysis of the deposited data

Results flagged for a closer look

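In 13 of 148 groups of 4 stimulated libraries tested (both regions of the 73 named genes and 2 shares of intronic counts), a single library stood apart from the other 3 by Dixon's criterion at its 95% level, where chance flags about 1 in 20. Replicate 3 gave the lowest value for exonic Cnga1 (0 CPM, others 0.307 to 0.314) and for intronic Ltv1 (34.67, others 43.4 to 44.9) and Pfkl (37.6, others 58.9 to 60.4). It gave the highest exonic value for Snrpd1 (188.8, others 168 to 171), Eif4b (1171, others 1023 to 1045) and Stat2 (42.75, others 25.7 to 28.4). Replicate 1 was lowest for intronic Cnga1 (316.1, others 368 to 376) and Plk1 (306.3, others 388 to 395) and highest for intronic Mthfd1 (213, others 165 to 169.7). Replicate 2 was highest for intronic Il7r (42.85, others 21.8 to 23.9) and Nolc1 (53.14, others 36.8 to 37.6) and lowest for exonic Psmb2 (207.3, others 235 to 239.8). Replicate 4 was highest for intronic Fcrla (81.52, others 62.7 to 63.2). Each of these genes kept its call of the difference without any single library. The share of intronic counts that fell in the 21 genes with introns above the width limit, which are not members but whose counts are part of the intronic totals and shares, was 25.2% ± 0.93 in stimulated (n = 4) and 14.8% ± 1.3 in naive libraries (n = 3; two-sided exact permutation test, p = 0.0286, the smallest possible).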

How the results depend on the processing

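Of 1373 values of 79 named results under alternative settings, 1360 kept their direction and their side of the threshold. Many of these results are genes named for a large difference or a small adjusted p, so this count does not describe all members. The setting that changed results was exonic scaling of both regions, which gave 7604 called differences in WT, 7662 in KO and 8048 in TG cells, against 5067, 4902 and 5090. Of the 5067 differences called in WT cells, only 2737 (54%) were called in the same direction with exonic scaling. This scaling turned the differences of Cd3g (0.292), Themis (0.628), H2-Aa (0.197) and Crtam (1.027) positive, and the differences of Pik3ip1, Nfkbiz, Smg1, Tnrc6a, Eif4b, Ddx58 and H2-Eb1 were no longer called. Intronic calls under it were 8936, with 881 higher and 8055 lower, against 6613, with 3219 higher and 3394 lower. Without the library term Themis and H2-Aa were not called. Leaving out 1 library at a time gave 4170 (without naive replicate 2) to 5145 (without naive replicate 4) called differences in WT, 3989 to 4840 in KO and 4409 to 5065 in TG cells, 9646 to 9972 exonic and 5620 to 6921 intronic calls, and a change of intronic share of -13.39 to -10.273 percentage points. With the replicate number as a block (replicate block), 5034 differences, 9907 exonic and 6654 intronic changes were called. Whether equal numbers mark paired libraries was not settled. Deviations of same-numbered libraries correlated at 0.133, 0.137 and 0.040 in exons, against -0.093 to 0.094 for libraries of different number. In introns they correlated at 0.407, -0.196 and 0.244, against -0.473 to 0.311. DESeq2's test called 5099 differences, a mean of at least 50 counts left 4405, and no filter gave 5512. Removing genes with overlaps and rescaling introns were added after seeing the data. Precision limits what can be called. Of simulated differences of -1 and 1 on the log2 scale 24% and 38% were recovered in the WT comparison of 10417 genes, and of -2 and 2 96% and 100%. The simulation changed 50 genes at each of these values, left 10217 unchanged and used a spread set in advance. In the data 48.6% of differences were called, so these shares are not the recovery in the data themselves. An uncalled difference is still not shown to be absent.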

Other observations

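Genes of the exonic fit that did not meet the width and intron conditions numbered 1835, of which 1411 changed in exons (76.9%).

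Named genes not described above had these differences. Eif1, a start codon selection factor, had 1.49 ± 0.17, with exonic and intronic changes of -0.21 and -1.71. Themis, a T cell signalling protein, had -0.60 ± 0.16, with changes of -2.91 and -2.35, a difference that was 0.63 with exonic scaling and not called without the library term. Crtam, a receptor of cytotoxic T cells, rose in both regions by 0.90 ± 0.16 and 1.10 ± 0.22 and had no called difference (edgeR, adjusted p = 0.406). Hnrnpab and Cyp51, with differences of 2.01 ± 0.18 and 2.24 ± 0.27, and Klrb1c and H2-Eb1, with -3.11 ± 0.39 and -1.34 ± 0.18, have exons of other genes in their introns or an intron width above their span. With exonic scaling the difference of H2-Eb1 was -0.10 and not called.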
